A study of Homo sapiens with 9 samples.

Results

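The genes described here encode the subunits of Mediator. They were taken by name from the annotation of the array, as every gene called MED with a number, together with the kinase module genes CDK8, CDK19 and CCNC. This gave 31 of the 19775 genes that have a probe set with a single gene name, and 91 probe sets in all. Each gene was read at its brightest probe set, the one with the highest mean log2 intensity over the 9 arrays. By this measure 30 of the 31 genes passed the intensity filter, which asked that 2 of a group's 3 arrays reach the array median, as did 13353 genes of the whole array. The remaining member was MED24, whose probe set gave 14, 21.5 and 107 on the control arrays, 23.6, 12.5 and 8.14 on the TIG1A arrays and 16.5, 64.7 and 23.0 on the TIG1B arrays, so it was not tested. A further probe set, annotated to both MIR6884 and MED24, was not named by the rule of a single gene name, so these low values do not settle the level of MED24. MED6 and MED25 were not analysed here, since no probe set carries either as its single gene name in the annotation used.

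Total RNA of HCT116 cells, an established human colon cancer line, was hybridised to 9 arrays of the type Affymetrix HG-U133 Plus 2.0. All cells carried the GeneSwitch regulator plasmid pSwitch, and all had received 5 nM mifepristone (MFP) for 24 h. The 3 control arrays came from a stable clone with the empty pGene/V5 plasmid, the 3 TIG1A arrays from cells with a V5-tagged TIG1A plasmid, and the 3 TIG1B arrays from cells with a V5-tagged TIG1B plasmid. TIG1, the product of the retinoid-responsive gene RARRES1, has a longer isoform A and a shorter isoform B. Each group is 1 stable line, so a difference between groups cannot be told apart from a difference between clones, and no array without MFP was compared.

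Mediator is the large assembly that carries the message of gene-specific activators and repressors to RNA polymerase II. Its head and middle modules contact the polymerase and the general transcription factors, MED14 runs through the complex as a scaffold, and the tail module receives most activators. A separate kinase module, made of CDK8 or CDK19, cyclin C, MED12 or MED12L and MED13 or MED13L, docks reversibly and modulates the contact with the polymerase. CDK8 is a known coactivator of β-catenin in colon cancer cells.

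The sequence just upstream of a member that changed is shown for MED15 and MED29, the members called in TIG1A cells that are in the RefSeq promoter table (GRCh38.p14), which held 24 of the 31 members. Each is given 5′ to 3′ on the strand of the gene and ends at the base before the annotated start. The MED15 stretch lies at chr22:20507460-20507609 (plus strand) and that of MED29 at chr19:39391228-39391377 (plus strand).
MED15: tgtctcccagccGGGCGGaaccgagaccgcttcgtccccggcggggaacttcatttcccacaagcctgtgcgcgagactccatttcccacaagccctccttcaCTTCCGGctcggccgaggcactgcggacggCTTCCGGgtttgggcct
MED29: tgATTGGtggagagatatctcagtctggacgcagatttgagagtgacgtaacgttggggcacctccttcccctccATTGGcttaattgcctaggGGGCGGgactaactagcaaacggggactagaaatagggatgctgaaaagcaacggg
Capitals mark matches to the letters of 4 promoter motifs searched on both strands, the CCAAT box (CCAAT), the GC box (GGGCGG), the ETS motif (CCGGAAG) and the TATA box (TATAAA). The MED15 stretch holds 1 GC box and a pair of ETS motifs, and the MED29 stretch holds 1 GC box and a pair of CCAAT boxes, with no TATA box in either. Within the 250 upstream bases of all 35116 promoters of the table, the GC box was present in 42.6%, the CCAAT box in 32%, the TATA box in 10.7% and the ETS motif in 8.52%. Among the 24 members the GC box was present in 14 (58.3%), the CCAAT box in 10 (41.7%), the TATA box in 2 (8.33%) and the ETS motif in 5 (20.8%), which were MED7, MED15, MED17, MED18 and MED31. These matches describe letters only.

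The induced gene matched the labels. RARRES1 gave 4.80 to 57.9 on the control arrays, 41198 to 56404 on the TIG1A arrays and 18603 to 27085 on the TIG1B arrays. Of 10 markers of colon epithelial cells, 6 (EPCAM, KRT8, KRT18, KRT19, CDH1 and CLDN4) were at or above the array median on all 9 arrays, whereas CDX2 was so on 8, VIL1 on 3, and CDX1 and GPA33 on 1. Of 6 markers of other cells, PTPRC, CD3E, ALB and COL1A2 were so on 1 to 3 arrays, but PECAM1 and COL1A1 on all 9. Of these 6, all but PTPRC differed between some groups without overlap. The summed signal of the 6 was 725 to 1245 on the control arrays, 1529 to 1860 on the TIG1A arrays and 1150 to 1176 on the TIG1B arrays, and no marker was at 0. COL1A1 gave 426 to 774 in control cells and was higher on every array of the lines (1312 to 1644 for TIG1A, 890.2 to 908 for TIG1B), as was COL1A2 (8.10 to 13.0, against 38.3 to 67.1 and 31.3 to 44.2). PECAM1 and CD3E were lower on every TIG1A array, and ALB on every TIG1B array, than on any control array. Of the 10 colon epithelial markers, 1 (CDH1) was above and 2 (KRT8 and KRT19) were below all control arrays in TIG1A cells. In TIG1B cells 2 (the dim VIL1 and CDX1) were above and 1 (KRT19) was below. KRT19 gave 17461 to 18688 on the control arrays, 11150 to 11781 on the TIG1A arrays and 10368 to 12022 on the TIG1B arrays. The 10 summed to 120019 to 131484 in control, 108521 to 121980 in TIG1A and 105824 to 137951 in TIG1B cells. The part of either set of markers in the results below was not tested. Array medians lay between 59.9 and 73.9. The 3′/5′ signal ratio of GAPDH, a sign of RNA quality, was 1.00 and 1.01 on TIG1A array 1 and TIG1B array 1, 0.899 to 0.905 on the other arrays of these lines and 0.924 to 0.950 on the control arrays. The same ratio of actin was lowest within each line on these number 1 arrays, at 1.13 and 1.12, against 1.15 to 1.23 on the other arrays of the lines and 1.21 to 1.27 on the control arrays. The part of either ratio in the results was not tested, but counts without both number 1 arrays are given below.

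In TIG1A cells 4 Mediator genes changed against control cells at an adjusted p below 0.05. MED15, MED22 and MED29 fell and MED8 rose. In TIG1B cells 1 changed, MED15, which again fell. Within 1.2-fold of the control level lay 15 of 30 members in TIG1A cells and 16 in TIG1B cells, or 9 and 12 after centring the arrays on their medians. Since all cells of a line were pooled in the RNA, less RNA per cell and fewer cells with the RNA cannot be told apart.

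**Figure D1:**
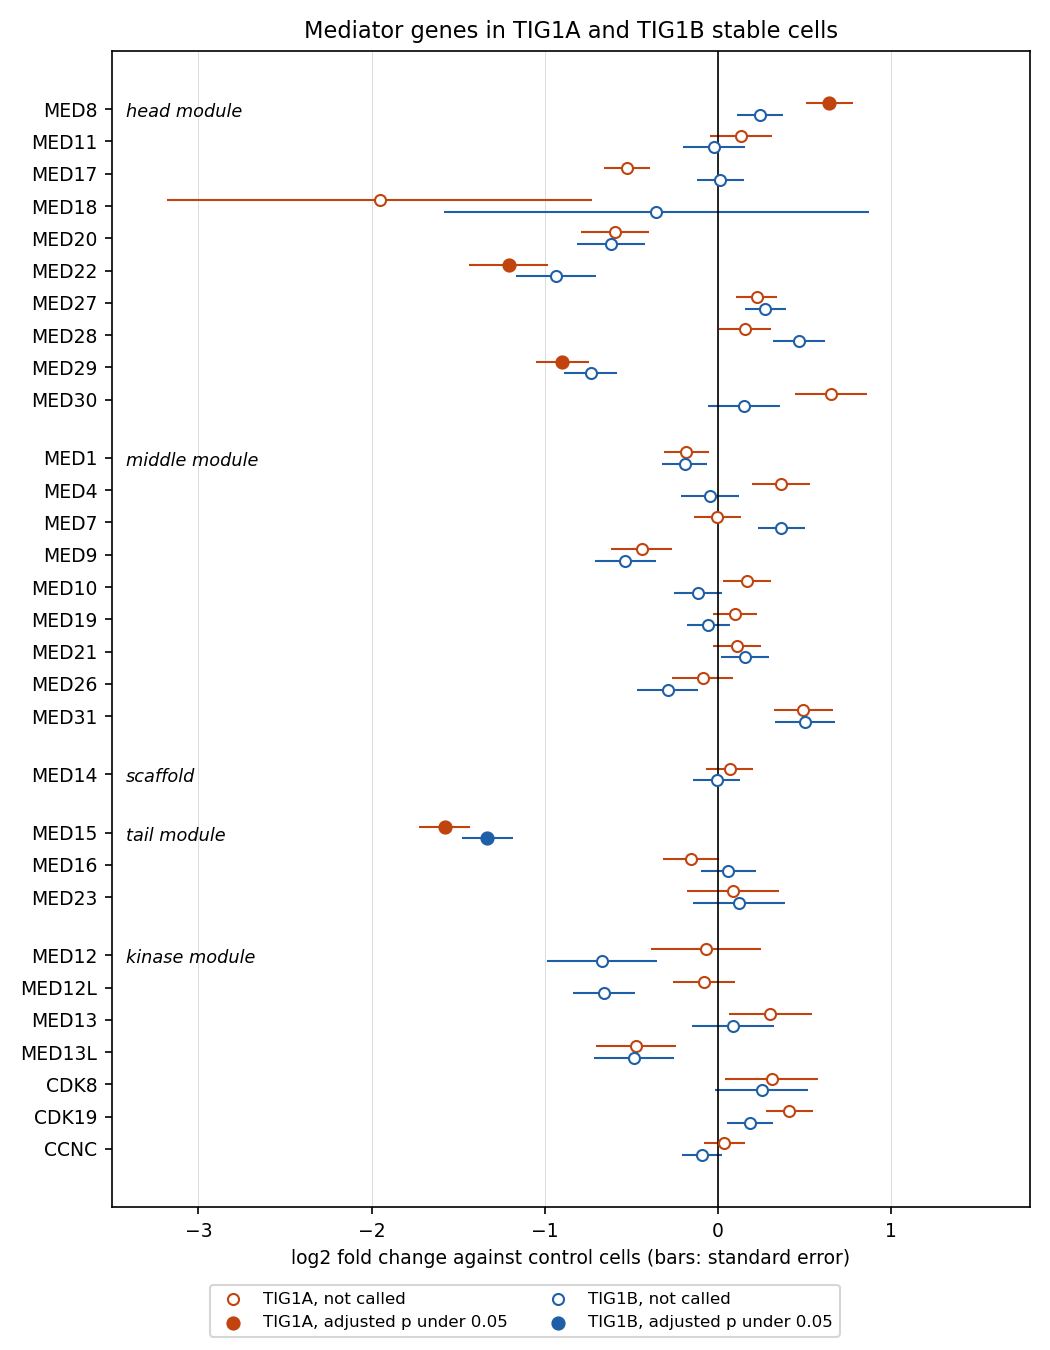
Log2 fold change of each of the 30 tested Mediator genes in TIG1A (red) and TIG1B (blue) cells against control cells, at the brightest probe set, with bars for the standard error and filled points for an adjusted p under 0.05, grouped by module. MED15, at -1.58 and -1.33, is the only gene with both points filled, and MED18 has the widest bars.

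The 4 called in TIG1A cells were 13.3% of the members tested, against 7.01% of all 13353 genes. By direction, the 3 falls were 10% of the members, against 3.62% of all genes, and the single rise was 3.33%, against 3.39%. In TIG1B cells the 1 call was 3.33% of the members, against 1.84% of all genes. That call was a fall, against 1.21% of all genes, and no member rose, against 0.637%, although limma gave MED7, MED28 and MED31 as higher at an unadjusted p below 0.05, and the methods' t-test gave these and MED27. With counts this small, the shares of the members and of all genes were not tested against each other. Both lines were compared with the same 3 control arrays, so the comparisons are not independent.

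At an unadjusted p below 0.05, limma gave 10 members in TIG1A cells (27.7% of all genes) and 9 in TIG1B cells (19.9%). The methods' t-test gave 7 members in TIG1A cells (23.9% of all genes) and 10 in TIG1B cells (17.1%) at the same unadjusted threshold, but 0 in both lines after Benjamini-Hochberg adjustment. The count of calls in TIG1A cells depended on single arrays, and the share of all genes called moved with it. Without control array 1, 2 or 3 it was 7, 1 and 2 members, beside 11.2%, 1.14% and 3.59% of all genes. Without TIG1A array 1, 2 or 3 it was 2, 1 and 1, beside 2.79%, 1.04% and 0.944%, and without TIG1B array 1, 2 or 3 it was 4, 2 and 2, beside 5.45%, 2.91% and 2.67%. Without both number 1 arrays of the lines it was 1, beside 1.15%. In TIG1B cells the count was 2 without control array 1 (3.73% of all genes), 0 without TIG1B array 1 (0.157%) and 0 without both number 1 arrays (0.00749%), and 1 without any other single array (0.172% to 1.02%).

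The tail module held the largest called change, that of MED15. MED15 carries a KIX domain that binds activators, among them the sterol regulator SREBP. Its only probe set, 222175_s_at, gave 1814, 1634 and 1811 on the control arrays, 519, 563 and 691 on the TIG1A arrays and 682, 735 and 671 on the TIG1B arrays. Every array of both lines lay below every control array, and the lines overlapped each other. Mean intensity was 1753 ± 103 (SD, n = 3) on the control arrays, 591 ± 89.4 on the TIG1A arrays and 696 ± 34 on the TIG1B arrays. The fall was 2.99-fold in TIG1A cells (log2 fold change -1.58, SE 0.15, adjusted p = 0.00635) and 2.52-fold in TIG1B cells (-1.33, SE 0.15, adjusted p = 0.0131).

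MED15 was called in TIG1A cells under 19 of 20 other ways of analysis and missed the threshold with the methods' t-test (adjusted p = 0.0523). In TIG1B cells it was called under 14 of the 20, and it was lost without TIG1B array 1 (log2 fold change -1.32, adjusted p = 0.0532). MED15 is also among the genes that the study picked from these arrays, so its fall is not independent evidence of a direction. The 20 nearest tested genes along chromosome 22, 10 on each side, had a median log2 fold change of -0.25 in TIG1A cells and -0.43 in TIG1B cells.

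The other tail genes did not pass the test at their brightest probe sets. MED16, which sits beside MED15 in the tail, gave 663, 895 and 734 on the control arrays, 748, 627 and 673 on the TIG1A arrays and 881, 744 and 754 on the TIG1B arrays. All 3 groups overlapped. MED23, a docking site for the growth factor responsive activator ELK1, had log2 fold changes of 0.09 (adjusted p = 0.867) and 0.12 (0.84). Of its 5 kept probe sets 2 were below 0 in TIG1A cells and 3 in TIG1B cells. Among them 223947_s_at, of similar signal, had -0.24 (adjusted p = 0.445) and -0.46 (0.236). Its TIG1B arrays (680, 868 and 947) lay below all control arrays (1292, 1031 and 1088).

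The 5 kept MED16 probe sets were all below 0 in TIG1A cells but differed in size, and 4 were below 0 in TIG1B cells. The brightest had log2 fold changes of -0.16 (adjusted p = 0.584) and 0.06 (0.872). Beside the brightest, 43544_at, the probe set 221938_x_at gave 531, 849 and 655 on the control arrays, 279, 263 and 276 on the TIG1A arrays and 465, 396 and 464 on the TIG1B arrays. Its TIG1A values were below all others, and its TIG1B values lay between those and the control values. This was a fall in TIG1A cells (log2 fold change -1.29, SE 0.19, adjusted p = 0.0146), while TIG1B cells did not pass (-0.60, adjusted p = 0.149). Of the other 3, 221545_x_at had -1.12 (0.0914) and 221418_s_at -0.96 (0.0712) in TIG1A cells, and 221544_s_at had -0.04 (0.967). MED16 probe sets were looked at one by one after their values were seen, and the suffix _x_at marks probes that may also match other transcripts.

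Over all 79 kept probe sets of members, 5 were called in TIG1A cells, against 6.06% of all 29977 kept probe sets, and 1 in TIG1B cells, against 1.78%. Of 22 members with more than 1 kept probe set, 11 had probe sets on both sides of 0 in TIG1A cells and 11 in TIG1B cells. The other 8 members, MED15, MED22 and MED29 among them, rest on 1 probe set.

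**Figure D2:**
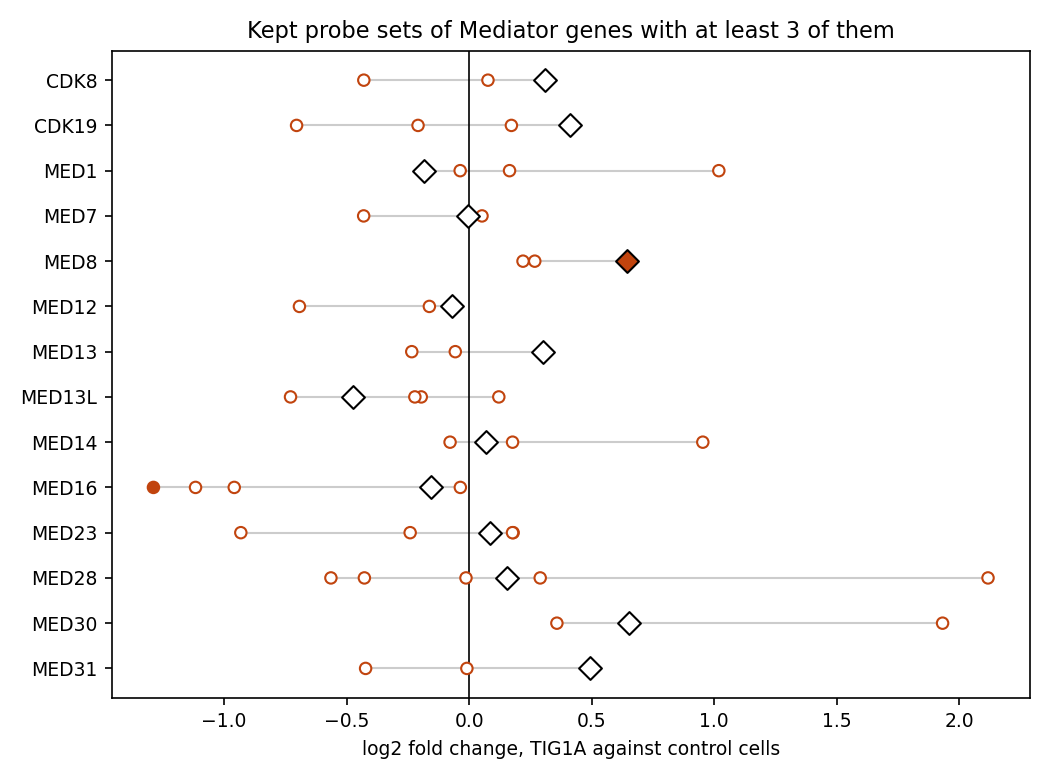
Log2 fold change in TIG1A against control cells of every kept probe set of the Mediator genes that have at least 3, with diamonds for the brightest probe set and filled marks for an adjusted p under 0.05. A single MED16 probe set that is not its brightest, at -1.29, is filled, and the only filled diamond is that of MED8.

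The head module clasps the polymerase and stimulates its assembly with the general factors. By the gene list used here, which places MED27, MED28, MED29 and MED30 in the head, this module held the other 3 called genes. Of its 10 tested members 2 fell and 1 rose in TIG1A cells, and none was called in TIG1B cells, where the lowest adjusted p was 0.0621. In TIG1B cells limma gave MED20, MED22, MED28 and MED29 at an unadjusted p below 0.05, and the methods' t-test gave these and MED27. TIG1A cells had a module median of -0.20 on the log2 scale and TIG1B cells one of -0.00.

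MED22 is a small core subunit of the head. Its only probe set, 206593_s_at, gave 319, 564 and 495 on the control arrays, 184, 177 and 222 on the TIG1A arrays and 209, 236 and 260 on the TIG1B arrays. All 6 arrays of the lines lay below the lowest control array, and the control arrays were themselves spread, with a mean of 459.6 ± 126 (SD, n = 3), against 194 ± 24.7 and 235 ± 25.7. The fall in TIG1A cells was 2.31-fold (log2 fold change -1.21, SE 0.23, adjusted p = 0.0293), and in TIG1B cells the difference was -0.93 (adjusted p = 0.0905). MED22 was called in TIG1A cells under 8 of 20 other ways of analysis, and in TIG1B cells under 3. The call in TIG1A cells was lost without any one of control arrays 2 and 3, TIG1A arrays 1, 2 and 3 and TIG1B arrays 2 and 3 (adjusted p up to 0.0968). No filter, the 6 arrays of the comparison alone, the methods' t-test, centring on array medians or leaving out both number 1 arrays also lost it. The nearest 20 tested genes on chromosome 9 had medians of -0.02 and -0.04.

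MED29 is a subunit of metazoan Mediator, the counterpart of the fly protein Intersex. Its only probe set, 225708_at, gave 790, 929 and 770 on the control arrays, 513, 391 and 434 on the TIG1A arrays and 506, 458 and 528 on the TIG1B arrays. The control arrays stood clear of both lines, which overlapped each other. Means were 829.6 ± 86.8 (SD, n = 3), 446 ± 62.0 and 497 ± 36.1. The fall in TIG1A cells was 1.86-fold (log2 fold change -0.90, SE 0.15, adjusted p = 0.0221). In TIG1B cells the difference was -0.74 (adjusted p = 0.0621). MED29 was called in TIG1A cells under 12 of 20 other ways of analysis, and in TIG1B cells under 4. The call in TIG1A cells was lost without control array 2 or TIG1A array 2 or 3 (adjusted p of 0.0782 to 0.0816). No filter, the 6 arrays of the comparison alone, the methods' t-test, sample numbers as a block or leaving out both number 1 arrays also lost it. The nearest 20 tested genes on chromosome 19 had medians of -0.43 and -0.32.

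MED8 joins MED18 and MED20 to the rest of the head. Its brightest probe set, 213696_s_at, gave 2164, 2093 and 2097 on the control arrays, 3079, 3555 and 3305 on the TIG1A arrays and 2222, 2781 and 2544 on the TIG1B arrays. Every TIG1A array was above every TIG1B array, and every TIG1B array was above every control array. Means were 2118 ± 40.1 (SD, n = 3), 3313 ± 238 and 2516 ± 280. The rise in TIG1A cells was 1.56-fold (log2 fold change 0.64, SE 0.13, adjusted p = 0.0365), and TIG1B cells had 0.24 (adjusted p = 0.383).

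MED8 has a further pair of kept probe sets. In TIG1A cells 213127_s_at had a log2 fold change of 0.27 (adjusted p = 0.51) and 213126_at one of 0.22 (0.447), in the same direction but smaller. In TIG1B cells they had 0.16 and 0.06. MED8 was called in TIG1A cells under 7 of 20 other ways of analysis, and in TIG1B cells under 0. The call in TIG1A cells was lost without control array 2 or 3, TIG1A array 1, 2 or 3, or TIG1B array 2 or 3 (adjusted p up to 0.121). No filter, the 6 arrays of the comparison alone, the methods' t-test, sample numbers as a block or leaving out both number 1 arrays also lost it. With the mean of the 3 probe sets the log2 fold change was 0.38 (adjusted p = 0.187).

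**Figure D3:**
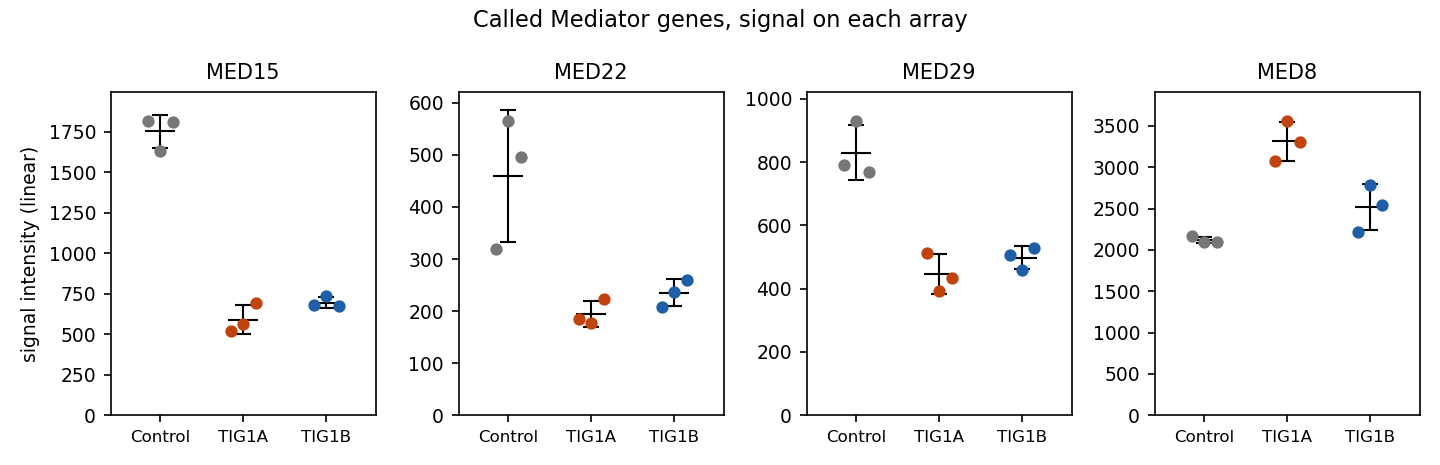
Signal intensity (linear scale, from 0) of the 4 called Mediator genes on each array, with the mean and SD of each group (n = 3). Control arrays lie above both lines for MED15, MED22 and MED29, and below both for MED8, where TIG1A arrays, from 3079 to 3555, are the highest.

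A pair of further head genes differed from control cells by at least 1.5-fold without overlap and did not pass the test. MED20, a partner of MED18, gave 673, 1028 and 712 on the control arrays, 478, 596 and 502 on the TIG1A arrays and 527, 552 and 469 on the TIG1B arrays. Both lines were below all control arrays, with log2 fold changes of -0.60 (adjusted p = 0.109) and -0.62 (0.151). MED30, a subunit of metazoan Mediator, gave 5397, 3855 and 3033 on the control arrays. It gave 6529, 6354 and 5901 on the TIG1A arrays and 4302, 4562 and 4409 on the TIG1B arrays. TIG1A arrays were the highest, and TIG1B arrays lay within the wide control range, with log2 fold changes of 0.65 (adjusted p = 0.102) and 0.15 (0.734).

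MED17, the central architectural subunit of the head, gave 3324, 4254 and 3721 on the control arrays, 2541, 2681 and 2591 on the TIG1A arrays and 3671, 3923 and 3766 on the TIG1B arrays. TIG1A arrays were below all others, whereas TIG1B and control arrays overlapped. TIG1A cells had a log2 fold change of -0.53 (SE 0.13, adjusted p = 0.0599) and TIG1B cells one of 0.01 (adjusted p = 0.964). MED18 was dim, with 43.9, 71.6 and 172 on the control arrays, 4.24, 12.8 and 171 on the TIG1A arrays and 76.1, 80.6 and 42.2 on the TIG1B arrays, and its log2 fold change of -1.95 had an SE of 1.23 (adjusted p = 0.362).

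The remaining head genes, MED11, MED27 and MED28, had log2 fold changes of 0.13, 0.22 and 0.16 in TIG1A cells and -0.02, 0.27 and 0.47 in TIG1B cells. None passed the test. MED28 had 7 kept probe sets, from -0.56 to 2.12 in TIG1A cells. The highest of these, 243668_at, was a dim probe set with 15.4, 9.89 and 13.5 in control cells and 31.3, 60.8 and 88.0 in TIG1A cells, and it did not pass (adjusted p = 0.192). Of the 7, 3 were below 0 in TIG1A cells and 4 in TIG1B cells. The bright 228992_at had -0.01 (adjusted p = 0.971) and -0.06 (0.887). In TIG1A cells 222635_s_at (-0.43, adjusted p = 0.0897) and 222636_at (-0.56, 0.13) lay below all control arrays. The second of these did so in TIG1B cells too (-0.41, 0.315).

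None of the 9 middle module genes was called in either line. At an unadjusted p below 0.05 limma gave MED9 and MED31 in TIG1A cells and these with MED7 in TIG1B cells, and the methods' t-test gave no middle gene in TIG1A cells and MED7, MED9 and MED31 in TIG1B cells. This module links the head to the tail and bears MED1, the subunit that binds nuclear hormone receptors. MED1 gave 1971, 1642 and 1980 on the control arrays, 1641, 1702 and 1568 on the TIG1A arrays and 1686, 1631 and 1563 on the TIG1B arrays, which was -0.18 (95% interval -0.48 to 0.12) and -0.19 (-0.49 to 0.11) on the log2 scale. The groups overlapped.

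MED31, a small and highly conserved middle subunit, had the largest positive log2 fold changes of the module in both lines, 0.49 (adjusted p = 0.126) and 0.50 (0.176). It gave 2079, 2411 and 2745 on the control arrays, 2813, 3908 and 3491 on the TIG1A arrays and 3260, 3358 and 3572 on the TIG1B arrays, with both lines above all control arrays. Its dimmer probe sets, 219318_x_at and 236241_at, had -0.42 and -0.01 in TIG1A cells. MED9 had the most negative log2 fold changes of the module in both lines, -0.44 (0.172) and -0.54 (0.166). MED7 had -0.00 in TIG1A cells (0.989) and 0.37 in TIG1B cells (0.214). MED4 had 0.37 in TIG1A cells (0.22) and -0.04 in TIG1B cells (0.912). Neither passed the test of TIG1A against TIG1B (adjusted p = 0.309 and 0.349). At their brightest probe sets MED10, MED19, MED21 and MED26, the last a subunit that hands the polymerase to elongation factors, lay between -0.29 and 0.17. The second kept probe sets of MED19, MED21 and MED26 lay further from 0, clear of all control arrays in both lines. For MED26, 231724_at had -1.04 (adjusted p = 0.33) and -1.78 (0.179). MED19 had 0.42 (0.139) and 0.27 (0.389) at 226293_at. MED21 had 0.36 (0.148) and 0.26 (0.358) at 209363_s_at.

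MED14, the scaffold, gave 1633, 1626 and 1504 on the control arrays, 1858, 1612 and 1538 on the TIG1A arrays and 1442, 1585 and 1721 on the TIG1B arrays. The groups overlapped, and the intervals of the log2 fold change were -0.25 to 0.38 in TIG1A cells and -0.32 to 0.31 in TIG1B cells. Its dim probe set 217120_s_at, with 45, 52.5 and 28.1 on the control arrays, 71, 95 and 71.6 on the TIG1A arrays and 95.3, 86.8 and 102 on the TIG1B arrays, was higher on all 6 arrays of the lines and did not pass (adjusted p = 0.0626 and 0.057).

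None of the 7 kinase module genes was called in either line, with lowest adjusted p-values of 0.11 and 0.115. At an unadjusted p below 0.05 limma gave CDK19 in TIG1A cells and MED12L in TIG1B cells, and the methods' t-test gave the same pair. CDK8, the kinase that gives the module its name, gave 1293, 1373 and 1536 on the control arrays, 1205, 2192 and 1968 on the TIG1A arrays and 1276, 1744 and 2078 on the TIG1B arrays. Array 1 of each line lay below the control arrays and the other arrays of the lines above them, so the log2 fold changes of 0.31 and 0.25 had wide intervals (-0.31 to 0.93 and -0.37 to 0.88). These number 1 arrays are those with the higher GAPDH ratio, whose part in the spread of CDK8 was not tested. Its other kept probe sets did not follow the brightest. The probe set 1553112_s_at gave 909, 1046 and 902 on the control arrays, 793, 683 and 647 on the TIG1A arrays and 759, 544 and 587 on the TIG1B arrays, below all control arrays in both lines, with log2 fold changes of -0.43 (adjusted p = 0.167) and -0.61 (0.12). The probe set 1553113_s_at had 0.08 and -0.11.

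CDK19, the paralogue of CDK8, gave 545, 447 and 442 on the control arrays, 666, 603 and 631 on the TIG1A arrays and 526, 530 and 568 on the TIG1B arrays. TIG1A arrays were above all others, and TIG1B arrays overlapped control arrays. TIG1A cells had a log2 fold change of 0.41 (adjusted p = 0.11) and TIG1B cells one of 0.19 (0.503). Of the other kept CDK19 probe sets, 212897_at had 0.17 (adjusted p = 0.657) and 0.08 (0.883), with overlapping groups. The dim 235226_at had -0.70 (0.376) and 0.24 (0.814), and the dim 211706_s_at had -0.21 (0.909) and 1.11 (0.557). CCNC, which encodes the cyclin that activates either kinase, gave 10593, 9709 and 9394 on the control arrays, 10127, 10067 and 10243 on the TIG1A arrays and 9209, 9739 and 8905 on the TIG1B arrays. Its values overlapped control cells in both lines, and its intervals were narrow, -0.23 to 0.31 in TIG1A cells and -0.36 to 0.18 in TIG1B cells.

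MED12, the subunit that turns the kinase on together with cyclin C, gave 301, 294 and 325 on the control arrays, 326, 248 and 307 on the TIG1A arrays and 128, 172 and 324 on the TIG1B arrays. A single TIG1B array reached the control range, and the log2 fold changes were -0.07 (adjusted p = 0.911) and -0.67 (0.309). Another MED12 probe set of similar signal, 203506_s_at, gave 284, 275 and 404 on the control arrays, 237, 142 and 222 on the TIG1A arrays and 262, 210.3 and 238 on the TIG1B arrays. Both lines lay below all control arrays there, with -0.69 (0.13) and -0.42 (0.398). The third, 211342_x_at, had -0.16 and -0.24. MED12L, its paralogue, gave 162, 136 and 144 on the control arrays, 117, 138 and 166 on the TIG1A arrays and 78.8, 101.1 and 101.5 on the TIG1B arrays. Here all TIG1B arrays were below all others, and the log2 fold changes were -0.08 (0.814) and -0.66 (0.115). The second MED12L probe set, 1555300_a_at, had 0.03 and 0.01.

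MED13, which ties the kinase module to the core, gave 3281, 2307 and 2318 on the control arrays, 2450, 3478 and 3866 on the TIG1A arrays and 2281, 3190 and 2882 on the TIG1B arrays. The groups overlapped, with log2 fold changes of 0.30 (adjusted p = 0.466) and 0.09 (0.878). MED13L, the alternative to MED13, gave 1513, 1310 and 2287 on the control arrays, 1080, 1241 and 1262 on the TIG1A arrays and 999, 1193 and 1392 on the TIG1B arrays. TIG1A arrays were below all control arrays and TIG1B arrays were not, with log2 fold changes of -0.47 (0.248) and -0.48 (0.315).

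**Figure D4:**
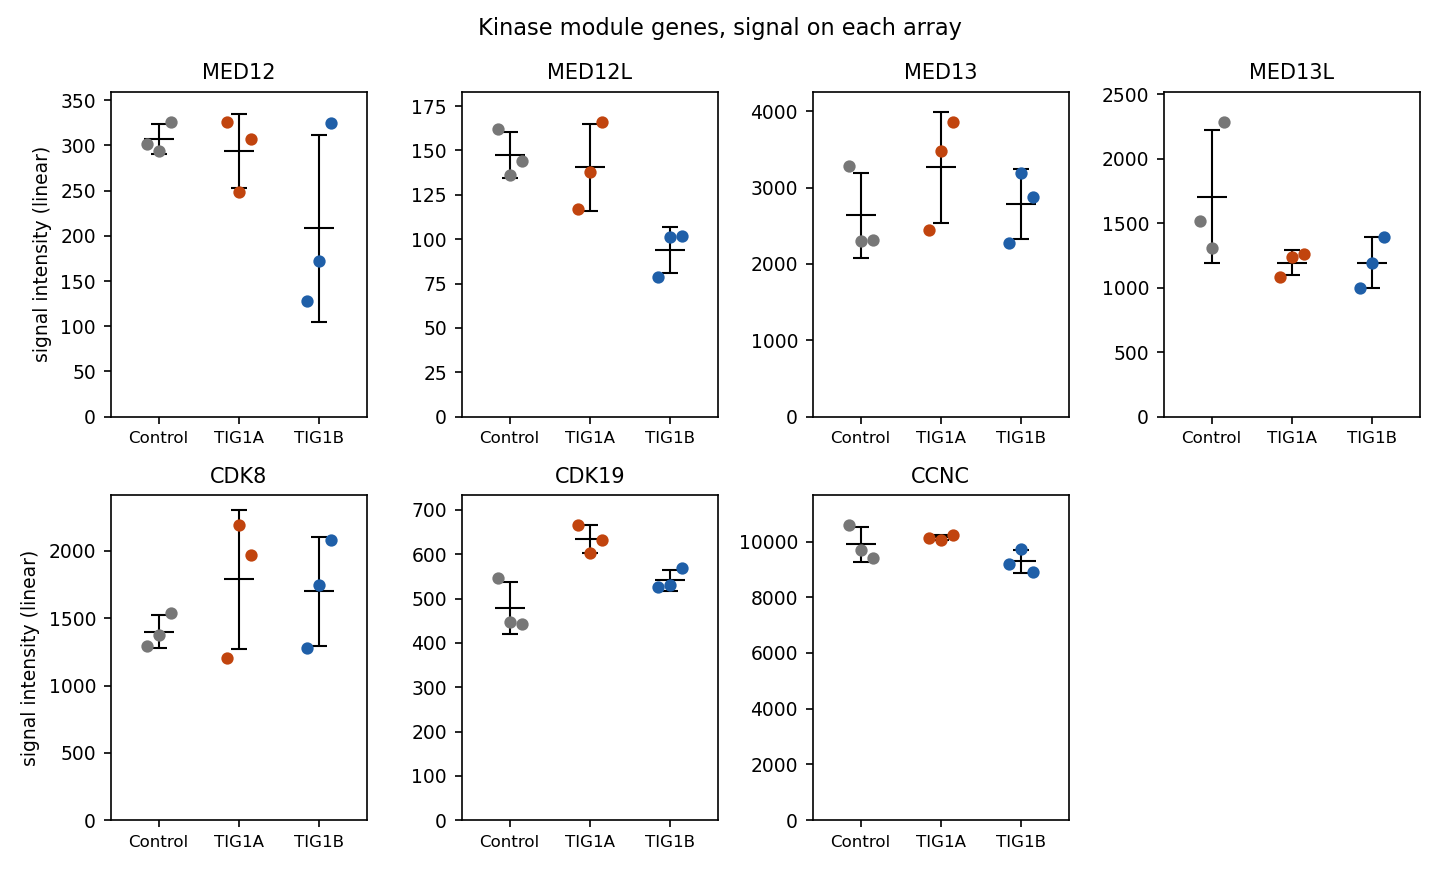
Signal intensity (linear scale, from 0) of the 7 kinase module genes on each array, with the mean and SD of each group (n = 3). Most groups overlap, and the low CDK8 points of the TIG1A and TIG1B groups, 1205 and 1276, are array 1 of each line.

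No member was called between TIG1A and TIG1B cells, against 0.584% of all genes. At an unadjusted p below 0.05 limma gave 6 members, MED4, MED7, MED8, MED12L, MED17 and MED30, against 15% of all genes, and the methods' t-test gave 8, against 19.7% of all genes, with 0 after adjustment. The lowest adjusted p was 0.158, that of MED17, which was 0.54 lower in TIG1A cells on the log2 scale (difference -0.54, 95% interval -0.85 to -0.23). For MED15 the difference was -0.25 (-0.59 to 0.09), for MED22 -0.28 (-0.81 to 0.26), for MED29 -0.16 (-0.52 to 0.20) and for MED8 0.40 (0.09 to 0.71). So the calls of MED22, MED29 and MED8 in TIG1A cells alone do not show a difference between the lines.

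By the plainer measure of groups that do not overlap, 7 members were higher in all TIG1A arrays than in all control arrays, which was 23.3% of the members, against 16.3% of all genes. A further 7 were lower, against 17.9%. In TIG1B cells 5 were higher (16.7%, against 12.2%) and 7 lower (23.3%, against 14.6%). At their brightest probe sets the higher genes were CDK19, MED4, MED8, MED27, MED28, MED30 and MED31 in TIG1A cells, and MED7, MED8, MED27, MED28 and MED31 in TIG1B cells. The lower genes were MED9, MED13L, MED15, MED17, MED20, MED22 and MED29 in TIG1A cells, and MED9, MED12L, MED15, MED20, MED22, MED26 and MED29 in TIG1B cells. Both lines were set against the same control arrays.

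Across the 30 members the median log2 fold change was 0.05 for TIG1A and -0.03 for TIG1B, beside -0.03 and -0.01 over all genes. Centring the arrays on their medians moved the median of all genes to 0.13 in both lines and that of the members to 0.22 and 0.11. A change of 1.5-fold or more was found for 7 members in TIG1A cells (27.9% of all genes) and 6 in TIG1B cells (22.6%). The members had a median coefficient of variation of 11.4% over control arrays, 9.47% over TIG1A arrays and 7.41% over TIG1B arrays. Genes at large had 18.6%, 13.7% and 14.1%. The members and genes at large were not matched for intensity, and the dim member MED18 had 70.4% over control arrays. The part of intensity in this difference was not tested.

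The rest of the RNA polymerase II machinery was read from lists of the polymerase subunits, the general transcription factors, the TAF subunits of TFIID and the factors of pause release and elongation. Of their 66 tested genes, 2 rose and 0 fell in TIG1A cells, where 3.39% and 3.62% of all genes did, and 1 rose and 0 fell in TIG1B cells, where 0.637% and 1.21% did. POLR2H, a polymerase subunit, gave 7817, 7795 and 7576 in control cells and 10707, 11664 and 12255 in TIG1A cells (log2 fold change 0.58, adjusted p = 0.0459). TAF12, a histone-fold subunit of TFIID, gave 1893, 1802 and 1731 in control cells and 2756, 2595 and 2545 in TIG1A cells (0.54, adjusted p = 0.0379). POLR2G, a polymerase subunit of the stalk, gave 7811, 8829 and 7858 in control cells and 14195, 12852 and 12600 in TIG1B cells (0.69, adjusted p = 0.043). In each case the arrays of the line lay clear of the control arrays. At an unadjusted p below 0.05 limma gave 8 machinery genes as higher and 9 as lower in TIG1A cells, and 3 and 6 in TIG1B cells, where the shares of all genes in either direction were 27.7% and 19.9%. The methods' t-test gave 10 and 8 in TIG1A cells and 5 and 6 in TIG1B cells, beside 23.9% and 17.1%. None of the 17 general transcription factors or the 23 elongation factors was called in either line, while limma gave 1 general factor in each line, and 3 elongation factors as higher and 5 as lower in TIG1A cells and 1 and 4 in TIG1B cells, at an unadjusted p below 0.05. Some machinery genes were lower, and others higher, without passing the test. POLR2A, the largest subunit of the polymerase, gave 2167, 1886 and 2104 on the control arrays, 972, 1256 and 1153 on the TIG1A arrays and 758, 1361 and 1054 on the TIG1B arrays, below all control arrays in both lines, with log2 fold changes of -0.87 (adjusted p = 0.0619) and -0.99 (0.0749). The elongation factors SUPT5H, SUPT6H and ELL2 had -0.63 (0.0622), -0.67 (0.102) and -0.58 (0.0754) in TIG1A cells and -0.60 (0.113), -0.66 (0.156) and -0.37 (0.274) in TIG1B cells. In the other direction, the elongation factor AFF1 had the highest log2 fold change of the 66 genes in both lines, 0.84 (0.0759) and 0.81 (0.128). AFF4, also of the elongation list, had 0.55 (0.072) in TIG1A cells and 0.16 (0.597) in TIG1B cells. TAF2 had 0.46 (0.083) and 0.05 (0.87). The genes named here as lower or higher without passing the test were chosen after their values were seen. Under some other settings machinery genes did fall in TIG1A cells. These were 3 of 6 called with an offset of 50, where 10.4% of all genes were called in either direction. They were 2 of 4 with the mean of all probe sets (7.94% of all genes). They were 7 of 12 with a trended and robust fit (14.6% of all genes) and 8 of 14 with the filter at the 75th percentile (25.3%).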

How the data were processed

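RNA of 9 samples (3 control, 3 TIG1A, 3 TIG1B) was hybridised to HG-U133 Plus 2.0 arrays. The authors deposited linear signal intensities, made with GCOS and scaled to a target of 500; detection calls were not used here. The series text gives MFP as 5 µM, whereas labels and paper give 5 nM. Probe sets were named through the platform annotation and gene numbers of GRCh38.p14. A probe set was kept when 2 of the 3 arrays in any group reached their own 50th percentile (29977 of 54675). Intensities under 1 were set to 1, log2 was taken, and limma 3.58.1 in R 4.3.3 was fitted with 1 mean per group to all 9 arrays and tested with its moderated test, adjusted by Benjamini-Hochberg over all kept probe sets (threshold 0.05). The limma fit alone was tested on simulated data, with known changes planted in the TIG1A arrays. The study describes the samples of a group as independent, so p-values measure their spread, and the number of arrays limits the precision. All members are accounted for. Values by array were given for members called, for those changed 1.5-fold or more without overlap, and for the kinase module. Others were added after their values were seen. The members and gene lists were chosen with earlier results of these data known. Alternatives were another normalization, offset, filter, fit, test and choice of probe set, and each array left out.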

Additional observations from a re-analysis of the deposited data

How the results depend on the processing

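The fold changes of MED15, MED22, MED29 and MED8 kept their sign in both lines under all 20 alternatives, but the counts of calls moved. From 4 Mediator genes called in TIG1A cells, the count went to 1 with no filter (0.106% of all genes called) or with the 6 arrays alone (0.502%), 9 with the filter at the 75th percentile (25.3%), 7 with a trended and robust fit (14.6%), 0 with the methods' t-test (0.524%) and 1 without both number 1 arrays of the lines (1.15%, chosen after seeing the data), and ranged from 1 to 7 with single arrays left out (0.944% to 11.2%). From 1 in TIG1B cells it went to 2 with an offset of 50 (3.27%) or the mean of all probe sets (2.59%), 4 with the filter at the 75th percentile (11.8%), 3 with the trended fit (6.19%), and 0 with no filter, the 6 arrays alone, the methods' t-test or without both number 1 arrays (0.00749% to 0.0374%), with 0 to 2 on leaving out single arrays (0.157% to 3.73%). Between the lines 1 gene, MED17, was called with the filter at the 75th percentile (5.01%) and with the trended fit (2.82%), instead of 0. The stricter filter tests fewer probe sets.

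The main fit did not pair the arrays by sample number. Deviations of same-numbered arrays had correlations of -0.04 to 0.19. The highest was that of TIG1A array 1 with TIG1B array 1. With the other arrays of the opposite line, these number 1 arrays had correlations of -0.13 to -0.10. Whether arrays of a number were handled together was not tested. With the replicate block 2 Mediator genes were called in TIG1A cells (MED15 and MED22, beside 2.37% of all genes). In TIG1B cells and between the lines 0 were called, but so were 0 of all 13353 genes. The polymerase machinery had 0 calls in TIG1A cells, beside the same 2.37%, and 0 in TIG1B cells, where no gene at all was called.

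The median of the members in TIG1A cells, 0.0529, became 0.218 on centring the arrays, 0.0932 with the filter at the 75th percentile and -0.0205 with the mean of all probe sets, and ranged from -0.0296 to 0.0758 with single arrays left out. In TIG1B cells it went from -0.033 to 0.113 on centring. Machinery genes called in TIG1A cells went from 2 (beside 7.01% of all genes called) to 1 with quantile normalization (beside 7.17%). They were 4 with centring (0 of them lower, beside 6.26%) or the mean of all probe sets (2 lower, beside 7.94%). The offset gave 6 (3 lower, beside 10.4%), the stricter filter 14 (8 lower, beside 25.3%) and the trended fit 12 (7 lower, beside 14.6%). No filter, the 6 arrays alone or the methods' t-test gave 0 (beside 0.106% to 0.524%). With single arrays left out they ranged from 0 to 5 (beside 0.944% to 11.2%). In TIG1B cells the machinery genes called went from 1 (beside 1.84% of all genes) to 2 with the offset (1 lower, beside 3.27%). The stricter filter gave 5 (3 lower, beside 11.8%) and the trended fit 4 (2 lower, beside 6.19%). No filter, the 6 arrays alone or the methods' t-test gave 0 (beside 0.0101% to 0.0374%). With single arrays left out they ranged from 0 to 2 (beside 0.157% to 3.73%). Where no value shows the cause of such a move, the cause was not tested.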
